A study of Mus musculus with 2 samples.

Results

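The genes described here encode 9 receptors or receptor chains for the growth factors that act on blood progenitors and on the myeloid lineages: Kit, Flt3, Csf1r, Csf3r, Csf2ra, Csf2rb, Csf2rb2, Il3ra and Il6st. They were chosen by symbol, through the GENCODE names of the gene identifiers, and all 9 were found among 43346 gene rows. Their levels were measured by paired-end sequencing of poly(A) RNA from G1E-ER4, an immortalized male mouse erythroid line without a working Gata1 gene of its own. In it GATA1, a transcription factor of the red cell lineage, is supplied as a fusion to a hormone-binding domain from the estrogen receptor. Exposure to 10 nM 17beta-estradiol, the ligand of that domain, had lasted 30 h. The 2 libraries, labelled biological replicates 1 and 2, form 1 group, with 73681318 and 56056404 estimated fragment counts. No untreated library was analysed here, so the values are levels in this state and not effects of estradiol, and the labels do not say how the cultures were separated.

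As background, hematopoietic cytokines act through receptors of 2 kinds. KIT, FLT3 and the receptor for CSF1 are tyrosine kinases that dimerize on binding their ligand. The receptors for IL-3, GM-CSF, IL-5, G-CSF and the IL-6 family have no kinase of their own and signal through JAK kinases and STAT factors. In the IL-3, GM-CSF and IL-5 receptors an alpha chain gives the specificity and a shared beta chain does the signalling, and in the IL-6 family gp130, the product of Il6st, is the shared chain. In red cell development KIT acts in early progenitors, and the erythropoietin receptor is needed by later progenitors and early erythroblasts.

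Transcripts of the 2 beta chain genes, Csf2rb and Csf2rb2, stood far above those of every other receptor gene of the set. Levels are given in TPM, transcript abundance per length with an equal total for every library, and means are given ± SD (n = 2). Csf2rb had 984 ± 158 TPM and Csf2rb2 271 ± 42.4 TPM, against 10.0 ± 1.37 TPM for Il3ra, the IL-3 receptor alpha chain gene, and 0.810 ± 0.0849 TPM for Kit. Together the beta chain genes held 99.1% ± 0.0226 of the TPM of all 9 genes. Only these 2 genes and Il3ra reached 1 TPM in both libraries, 3 of 9, where 35.3% of the 21474 protein-coding genes did. The share of genes above 1 TPM was thus near that of all genes, while Csf2rb and Csf2rb2 also passed 100 TPM in both libraries, a level reached by 4.32% of protein-coding genes.

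**Figure D1:**
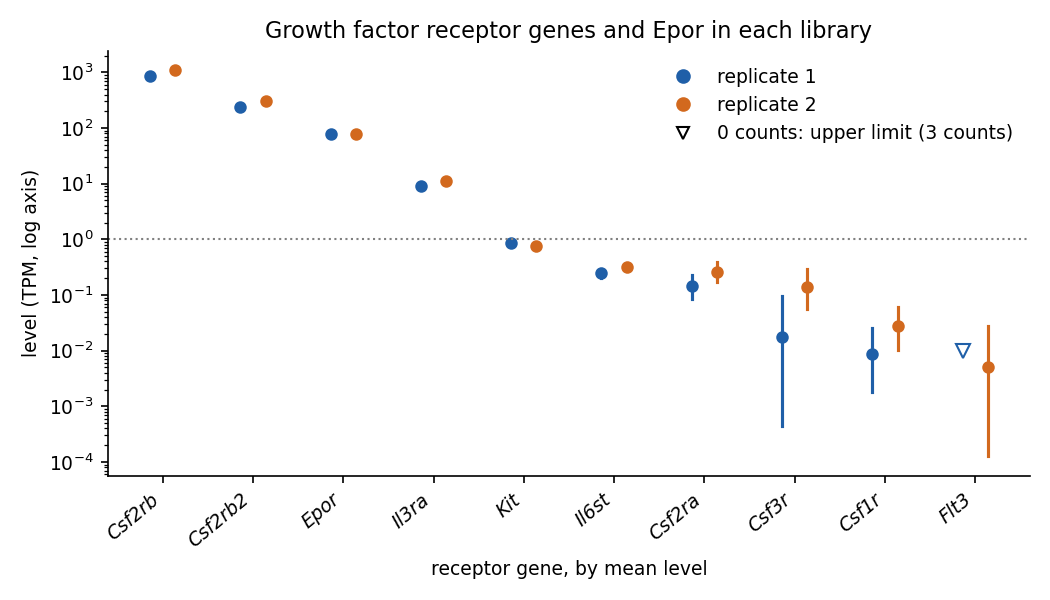
Level of the 9 receptor genes and of Epor, the erythropoietin receptor gene, in TPM on a log axis, with 1 point per library and 95% Poisson intervals for counting error only. Csf2rb and Csf2rb2 lie above Epor in both libraries, and the genes to the right of Il3ra lie under the dotted line at 1 TPM.

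Csf2rb encodes the beta chain shared by the IL-3, GM-CSF and IL-5 receptors, and Csf2rb2 a closely related beta chain that serves IL-3 in the mouse. The genes lie beside each other on chromosome 15 of the build mm10. Csf2rb2 (ENSMUSG00000071714.5) spans 78282507 to 78305721 on the minus strand, and Csf2rb (ENSMUSG00000071713.4) spans 78325752 to 78353847 on the plus strand, so that their starts face each other. The coding sequences, of 2688 bases in Csf2rb and 2634 in Csf2rb2, were 95.2% identical over 2628 aligned bases. The stretch that codes for the WSXWS box, a signature of this receptor family, is shown with its surroundings because it shows how few bases tell reads of the genes apart. It was read from the GENCODE M21 transcripts, at coding bases 1237 to 1341 of Csf2rb and 1234 to 1338 of Csf2rb2, and capitals mark the 6 of 105 bases that differ.
Csf2rb: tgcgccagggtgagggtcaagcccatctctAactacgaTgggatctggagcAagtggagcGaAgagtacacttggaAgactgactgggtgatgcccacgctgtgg
Csf2rb2: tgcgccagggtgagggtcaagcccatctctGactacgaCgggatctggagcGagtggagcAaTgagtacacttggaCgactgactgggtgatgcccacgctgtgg

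Over whole transcripts, 18.9% of all 50-base runs of Csf2rb occurred unchanged in Csf2rb2, and 7.16% of its 100-base runs. A fragment from such a stretch cannot be assigned by sequence alone, so the authors' estimation divides it between the genes. The shared part was smaller for longer runs, and the share for whole fragments was not computed. How uncertain the split is was therefore not measured.

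Csf2rb had 299801 counts in replicate 1 and 288006 in replicate 2, which was 0.407% and 0.514% of all counts. Its level was 873 and 1096 TPM, at ranks 109 and 78 among the 21474 protein-coding genes. Csf2rb2 had 80009 and 76400 counts and 241 and 301 TPM, at ranks 440 and 342. Both genes were higher in replicate 2, and in each library every value of Csf2rb lay above those of the other receptors. The ratio of Csf2rb to Csf2rb2 was 3.62 in replicate 1 and 3.64 in replicate 2. On the log2(TPM + 1) scale it was 1.86 with a standard error of 0.187 (limma adjusted p = 0.000783, n = 2), an error set mostly by the spread of genes of like level and not by the 0.00659 SD of the ratio itself.

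The alpha chain genes that pair with these beta chains differed widely. Il3ra (ENSMUSG00000068758.7, chromosome 14, 14346275 to 14356011, plus strand), which gives the receptor its specificity for IL-3, had 834 and 767 counts and 9.03 and 10.97 TPM, at ranks 4769 and 4319. Csf2ra (ENSMUSG00000059326.6, chromosome 19, 61223957 to 61228429, minus strand), the GM-CSF alpha chain gene, had 18 and 25 counts and 0.14 and 0.26 TPM. The IL-5 alpha chain gene Il5ra had no counts in either library, a result that up to 3 counts would still allow. Of the 3 alpha chain genes, Il3ra alone was above 1 TPM, and its values did not overlap those of Csf2ra. Il3ra exceeded Csf2ra by 3.19 on the log2(TPM + 1) scale with a standard error of 0.150 (limma adjusted p = 6.43e-05). That scale understates differences between low genes, with 5.10 at a pseudocount of 0.1 TPM and 5.63 at 0.01 TPM, and the plain TPM ratio was 64.5 in replicate 1 and 42.2 in replicate 2.

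The summed beta chain transcripts were 123 times the Il3ra transcripts in replicate 1 and 127 times in replicate 2. Csf2rb exceeded Il3ra by 6.48 on the log2(TPM + 1) scale with a standard error of 0.196 (limma adjusted p = 1.53e-05). Csf2rb2 exceeded Il3ra by 4.62 with a standard error of 0.186 (limma adjusted p = 4.17e-05). The SDs of the differences themselves, 0.0520 and 0.0454 (n = 2), were smaller and do not enter the p-values. All these values compare amounts of transcript, and the amounts of protein at the cell surface were not measured.

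The erythropoietin receptor gene Epor, taken as the reference of the lineage, had 9752 and 7440 counts and 78.15 and 78.45 TPM. Csf2rb was 11.2 and 13.97 times as high as Epor in replicates 1 and 2, and Csf2rb2 was 3.08 and 3.83 times as high. On the log2(TPM + 1) scale the difference Epor minus Csf2rb was -3.63 with a standard error of 0.167 (limma adjusted p = 6.41e-05), and Epor minus Csf2rb2 was -1.77 with a standard error of 0.155 (limma adjusted p = 0.000499). It was above Il3ra, by 8.65 and 7.15 times. Among the 9 receptor genes only the beta chain genes were above Epor.

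**Figure D2:**
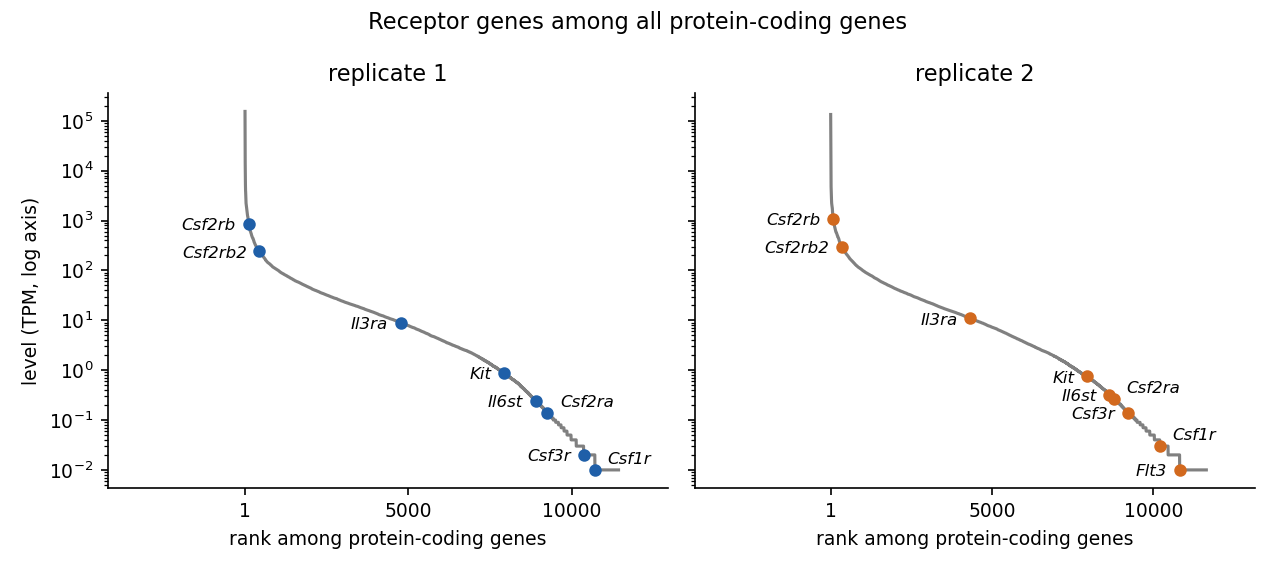
Level in TPM (log axis) against rank for all protein-coding genes with a level above 0, grey line, with the receptor genes as points in each library. Csf2rb lies at ranks 109 and 78 and Csf2rb2 at 440 and 342, Il3ra lies on the middle slope, and Kit, Il6st, Csf2ra, Csf3r, Csf1r and Flt3 lie on the falling end. Flt3 is not drawn in replicate 1, where it had 0 counts.

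Transcripts of the receptor tyrosine kinase genes were low. Kit (ENSMUSG00000005672.8, chromosome 5, 75574916 to 75656722, plus strand), which encodes the stem cell factor receptor of early progenitors and mast cells, had 329 and 215 counts and 0.87 and 0.75 TPM, with 95% Poisson intervals of 0.781 to 0.972 and 0.649 to 0.852 TPM for counting error. The signal was above the limit that a count of 0 allows, 0.00795 and 0.0104 TPM for this gene. Epor was 89.8 times Kit in replicate 1 and 104.6 times in replicate 2, and Csf2rb was 1003 and 1461 times Kit. On the log2(TPM + 1) scale Epor exceeded Kit by 5.45 with a standard error of 0.117 (limma adjusted p = 4.45e-06). After adjustment of levels for GC content, 47.1% in Kit and 60.4% in Epor, this difference was 3.88, and with a pseudocount of 0.01 TPM it was 6.58. Il3ra, with a GC content of 63.7%, exceeded Kit by 2.60, and by 0.82 after the GC adjustment. Direction and call were kept in these fits, and the size was not.

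The estimation assigned all Kit counts to the transcript ENSMUST00000005815 of 5214 bases and none to ENSMUST00000144270 of 5241 bases. The deposited posterior mean shares put 48.4% and 40.7% on the former and 34.8% and 35.0% on the latter. The data therefore do not settle which of these protein-coding transcripts was present.

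Flt3 (ENSMUSG00000042817.13, chromosome 5, 147330741 to 147400489, minus strand), the receptor gene of multipotent and lymphoid-primed progenitors, had 0 counts in replicate 1 and 1 count in replicate 2. A count of 0 allows up to 0.00975 TPM there. Csf1r (ENSMUSG00000024621.11), the receptor gene of monocytes and macrophages, had 3 and 6 counts, or 0.01 and 0.03 TPM. Both were lower than Kit in each library, and neither had enough counts for the test of levels.

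Csf3r (ENSMUSG00000028859.10, chromosome 4, 126024550 to 126044440, plus strand), the G-CSF receptor gene of the granulocyte lineage, had 1 and 7 counts, or 0.02 and 0.14 TPM. Of these, 1 and 5.68 estimated counts were placed on the processed transcript ENSMUST00000140426 of 921 bases, so the TPM rests on a short gene model and few fragments. The 3 genes Csf3r, Csf1r and Flt3 together had 4 counts in replicate 1 and 14 in replicate 2.

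Myeloid marker RNA was higher in replicate 2, and its values stand beside these counts. The 15 myeloid markers summed to 0.83 TPM in replicate 1 and 11.9 TPM in replicate 2, and 9 were higher and 1 lower in replicate 2. None reached 1 TPM in both libraries, but in replicate 2 the granule genes Mpo, Prtn3 and Elane were at 3.96, 3.76 and 3.04 TPM, above Kit, Il6st and Csf2ra in that library. Mpo, Prtn3 and Elane had 32, 3 and 2 counts in replicate 1 and 507, 181 and 130 in replicate 2. Ctsg, Lyz2, Itgam, S100a9, Fcgr3 and Adgre1 had 0 counts in replicate 1 and 21, 7, 5, 3, 2 and 1 in replicate 2. Cd68 had 42 and 26 counts, and Cd14, Ly6g, Lyz1, Ms4a3 and S100a8 had none in either library. The part of this RNA in the receptor values of replicate 2, among them the higher Csf3r and Csf1r counts, was not tested.

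Of the mast cell markers, which are relevant to Kit, 8 of 12 had 0 counts in both libraries, among them Cpa3, Fcer1a and Ms4a2, and the list summed to 0.59 and 0.75 TPM, nearly all from Hdc, while Mcpt1 had 2 and 0 counts and Prss34 0 and 1. The part of such RNA in the level of Kit was not tested. Of the 10 stem and progenitor markers, Gata2 and Meis1 reached 1 TPM in both libraries, Meis1 at 1.63 and 1.51 TPM, while Myb had 0.16 and 0.14 TPM and Ly6a and Slamf1 had no counts. None of the 9 lymphoid markers reached 1 TPM, the highest being Lck at 0.13 and 0.32, Cd79a at 0.30 and 0.05 and Pax5 at 0.20 and 0.03 TPM, and Cd3g, Il7r and Rag1 had no counts. All 8 erythroid markers were above 1 TPM in both libraries, from 21.8 ± 4.37 TPM for the transferrin receptor gene Tfrc to 144036 ± 14450 TPM for the beta-globin gene Hbb-bs, with the alpha-globin gene Hba-a1 at 67503 and 94658 TPM and the factor gene Klf1 at 677 and 765 TPM. In bulk RNA, fewer cells that hold a transcript and less transcript per cell cannot be told apart, so a level such as that of Kit may come from all cells or from some.

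Il6st (ENSMUSG00000021756.8, chromosome 13, 112464070 to 112510086, plus strand), the gp130 gene, had 145 and 139 counts and 0.24 and 0.32 TPM. Kit exceeded Il6st by 0.50 on the log2(TPM + 1) scale with a standard error of 0.0900 (limma adjusted p = 0.00586). The value of Il6st depends on how its 10 annotated transcripts are weighed. The transcript ENSMUST00000183663 of 8678 bases took 90.2% and 83.1% of the level, whereas the posterior means gave the gene 0.80 and 1.01 TPM and put 48.9% and 47.9% of it on ENSMUST00000183513, which has 201 bases and 0 counts. With posterior means Kit exceeded Il6st by 0.08, which did not pass the test (limma adjusted p = 0.513), and with a pseudocount of 0.01 TPM by 1.51, which passed (limma adjusted p = 0.0126).

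Il6st and Csf2ra, neighbours in the order of levels, were not separated, at 0.09 on the log2(TPM + 1) scale with a standard error of 0.0791 (limma adjusted p = 0.301). With posterior means the difference was 0.65 and passed (limma adjusted p = 0.00238). After adjustment of levels for GC content, which was 48.2% in Il6st and 64.1% in Csf2ra, it was 1.80 and passed too (limma adjusted p = 2.35e-05). In all, the order by mean level was Csf2rb, Csf2rb2, Il3ra, Kit, Il6st, Csf2ra, Csf3r, Csf1r and Flt3. Of 51 gene pairs considered, 23 had enough counts for the test, and 22 of them passed with the same sign in both libraries, the largest of their limma adjusted p-values being 0.00586.

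The chains that pair with gp130 were mostly below it. Il6ra, the IL-6 receptor alpha chain gene, had 5 and 4 counts, the leukemia inhibitory factor receptor gene Lifr had 1 and 2 counts, and the oncostatin M receptor gene Osmr had 0 counts in both libraries. Il11ra1 and Cntfr, the alpha chain genes for IL-11 and for ciliary neurotrophic factor, were exceptions. Il11ra1 had 3.01 and 4.90 TPM and lay above Il6st, with a log2(TPM + 1) difference Il6st minus Il11ra1 of -1.93 and a standard error of 0.195 (limma adjusted p = 0.000783). Cntfr had 5.34 and 5.80 TPM and also lay above Il6st, with a difference Il6st minus Cntfr of -2.36 and a standard error of 0.141 (limma adjusted p = 0.000127). After adjustment for GC content these differences shrank to -0.70 (limma adjusted p = 0.00943) for Il11ra1 and -0.95 (limma adjusted p = 0.00114) for Cntfr. With a pseudocount of 0.1 TPM they were -3.38 and -3.91. Their direction and call were kept in these fits, and their size was not. Counts lay closer together, at 190 and 195 for Il11ra1 and 212 and 169 for Cntfr, beside 145 and 139 for Il6st. The TPM values of Il11ra1 and Cntfr rest on short gene models, with effective lengths of 846 and 696 bases and of 532.5 and 509 bases. That of Il6st was 7964 and 7546 bases. TPM divides counts by these lengths, and whether the gene models match the transcripts present was not tested.

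The genes around the receptor genes were examined to see whether the level of Csf2rb and Csf2rb2 was shared by their surroundings. Of 7 protein-coding genes within 100 kb of Csf2rb, 4 reached 1 TPM in both libraries, Csf2rb2 among them, where 35.3% of all protein-coding genes did. Csf2rb2 lies 20.03 kb from Csf2rb. Ncf4, a subunit gene of the phagocyte oxidase that lies 19.9 kb beyond Csf2rb2, had 5.94 and 2.50 TPM. Mpst, which encodes a sulfurtransferase and lies 52.6 kb on the other side of Csf2rb, had 319 and 301 TPM.

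Tst, a sulfurtransferase gene next to Mpst, had 6.53 and 4.14 TPM. Kctd17 had 4 counts in each library, and Tex33 and Tmprss6, a gene of iron control in the liver, had 0. High and near-silent genes thus stood side by side around the beta chain genes. Around Il6st, Il31ra, which encodes a receptor chain related to gp130 and lies 9.81 kb away, had 0 counts in both libraries.

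**Figure D3:**
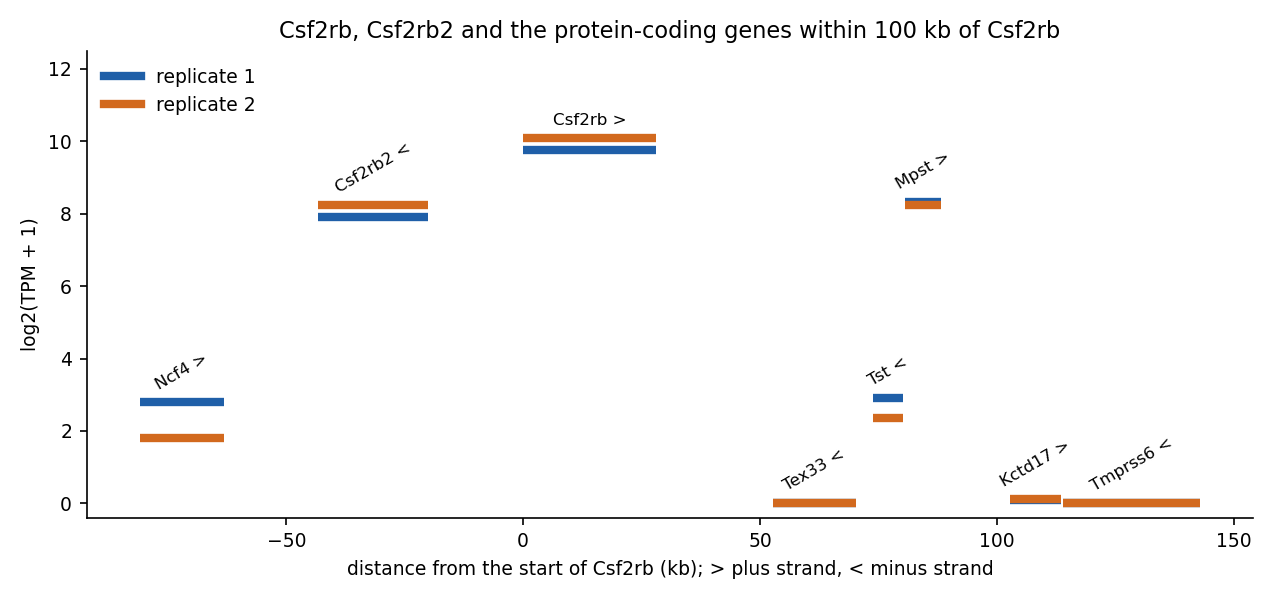
Level as log2(TPM + 1) of Csf2rb and of the 7 protein-coding genes within 100 kb of it, drawn to scale along the chromosome as distance in kb from the start of Csf2rb, with 1 bar per library. The beta chain genes and Mpst stand high, while Tex33, Kctd17 and Tmprss6 lie at or near 0.

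Promoter sequences are shown for Csf2rb2, a gene at the top of the order, and for Il6st and Flt3, which lay far below it, because GATA factors are textbook regulators of genes in this lineage. They are the 250 bases before the RefSeq start on build GRCm38.p6, at chr15:78305722-78305971 on the minus strand, chr13:112463820-112464069 on the plus strand and chr5:147400490-147400739 on the minus strand. Entries were found for 7 of 9 genes, without Csf2rb and Csf1r. The GATA motif was searched on both strands as AGATAA or AGATAG, or with T as the first letter as TGATAA or TGATAG, and capitals mark a match on either strand.
Csf2rb2: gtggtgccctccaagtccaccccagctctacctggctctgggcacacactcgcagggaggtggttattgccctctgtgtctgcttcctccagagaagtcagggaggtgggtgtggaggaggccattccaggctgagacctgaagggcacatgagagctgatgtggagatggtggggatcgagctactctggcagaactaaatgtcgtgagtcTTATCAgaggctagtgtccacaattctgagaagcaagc
Il6st: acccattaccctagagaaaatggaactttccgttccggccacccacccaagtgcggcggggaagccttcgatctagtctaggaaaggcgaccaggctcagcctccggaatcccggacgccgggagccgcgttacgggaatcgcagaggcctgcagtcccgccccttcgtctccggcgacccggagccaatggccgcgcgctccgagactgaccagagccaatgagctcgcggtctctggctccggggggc
Flt3: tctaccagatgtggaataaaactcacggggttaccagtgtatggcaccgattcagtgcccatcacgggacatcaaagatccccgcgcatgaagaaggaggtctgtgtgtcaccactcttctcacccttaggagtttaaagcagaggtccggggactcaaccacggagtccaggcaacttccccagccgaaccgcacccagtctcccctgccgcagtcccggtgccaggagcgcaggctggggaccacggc

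Csf2rb2 had 1 match, beginning 38 bases before the start, and Il3ra had 1 match, beginning 147 bases before the start. The windows of Il6st, Flt3, Kit, Csf2ra and Csf3r held none. Of all 32851 promoter entries, 26.5% held at least 1 match, so 2 of 7 is near the share of promoters at large. A match describes letters only, and binding was not measured here.

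Of the growth factor genes that feed these receptors, none of 15 measured reached 1 TPM, where 35.3% of protein-coding genes did. Kitl, Csf2, Csf3, Il3, Il5, Il6, Il34, Lif, Epo and Thpo had no counts in either library, which limits them to 0.0407 and 0.0535 CPM (counts scaled to the library total) in replicates 1 and 2. The highest was Ctf1, the cardiotrophin gene of the IL-6 family, at 0.28 and 0.67 TPM, followed by Osm at 0.16 and 0.12 TPM and Il11 at 0.10 and 0.11 TPM. Csf1 had 0 and 1 counts.

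Signalling genes that serve these receptors were mostly transcribed, 28 of 32 at 1 TPM or more in each library, beside 35.3% of protein-coding genes. Their median was 13.2 TPM, beside a median of 0.015 TPM over all protein-coding genes. The inositol phosphatase gene Inpp5d, whose product SHIP1 limits signalling by KIT and the beta chain receptors, was highest in TPM, at 289 ± 3.90. That rank rests on effective lengths of 1047 and 962 bases, with 22773 and 15765 counts. Stat5b had 22462 and 19002 counts over 4768 and 4736 bases, or 63.2 and 70.1 TPM. Jak1, the kinase gene used by gp130, had 289 and 209 TPM, and the adaptor gene Shc1 had 116 and 101 TPM. Jak1 did not fall in counts, at 193 and 200 CPM, and its effective length was 662 bases in replicate 1 and 936 in replicate 2. Jak2, the kinase gene used by the beta chain and by the erythropoietin receptor, had 10.8 and 11.9 TPM. Jak2 was thus lower than Csf2rb in both libraries.

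Feedback inhibitor genes were at 1 TPM or more in both libraries in 13 of 18 cases, beside 35.3% of protein-coding genes, with a median of 4.42 TPM. Dok1, which encodes a docking protein that restrains tyrosine kinase signalling, was highest at 294 and 283 TPM. Cish, a STAT5 target gene, had 180 and 218 TPM. Sh2b3, which encodes the adaptor LNK that restrains KIT and erythropoietin signalling, had 75.3 and 106 TPM. The sprouty gene Spry2 and the phosphatase gene Dusp6 had at most 2 counts.

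Transcription factor genes known to act on receptor genes were split, with 10 of 18 at 1 TPM or more in both libraries, beside 35.3% of protein-coding genes. Zfpm1 had 2525 and 3262 TPM and Gata1 had 2036 and 1608 TPM, in which reads of the resident gene and of the fusion were not told apart, and Tal1 had 417 and 414 TPM. Spi1, the myeloid factor gene that acts on Csf1r and Csf3r, had 4.97 and 5.95 TPM, and Cebpa, which acts on Csf3r, had 0 and 14 counts. Gata2, which acts on Kit, had 23.1 and 34.7 TPM. No relation between these levels and those of the receptors can be tested in 1 group.

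**Figure D4:**
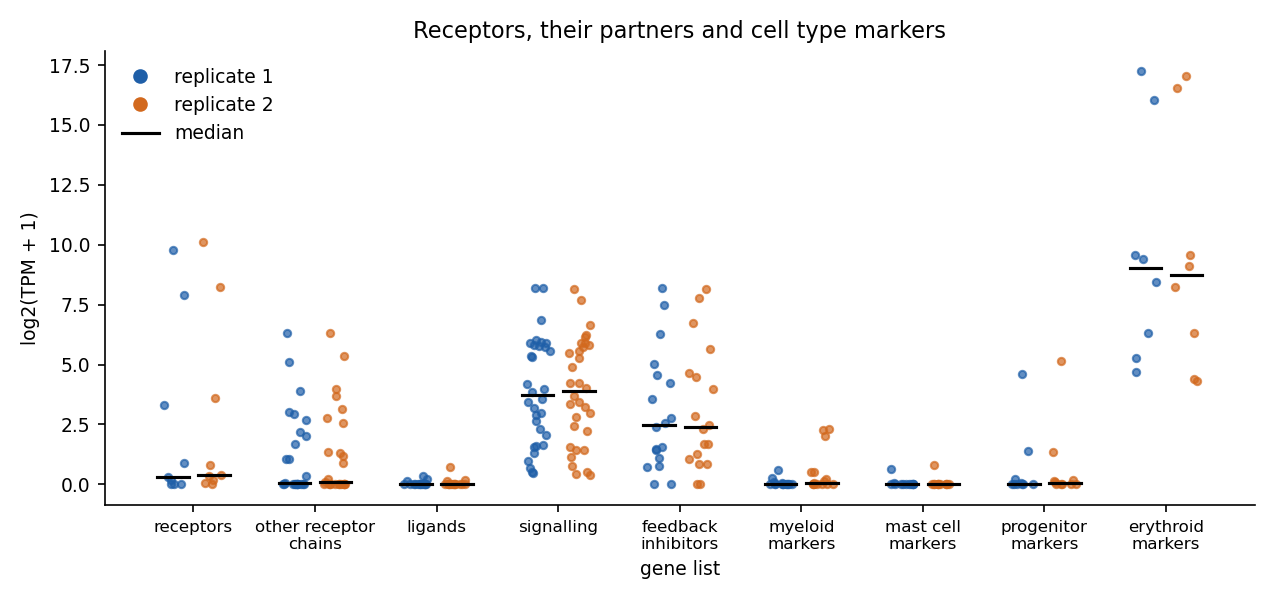
Level as log2(TPM + 1) of each gene in the lists of receptors, other receptor chains, ligands, signalling genes, feedback inhibitors and cell type markers, with 1 point per gene and library and a black bar at the median. Ligands lie at or near 0, signalling genes are spread over the expressed range, and the receptors are split between Csf2rb, Csf2rb2 and Il3ra and the rest.

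The replicates were compared to see how far the receptor values depend on the library, by an exact binomial test of counts that compares these 2 libraries and not conditions. At an adjusted p under 0.05 it called 58.8% of 10445 genes, 29.9% higher and 29% lower in replicate 2, since counting error is small beside the spread between libraries. Of the 6 receptor genes with enough counts, 4 were called, a count near that background for calls in either direction. All 4 were higher in replicate 2, a direction that 29.9% of genes took, and Csf2rb and Csf2rb2 are not independent in this, since reads may be divided between them. Normalised counts of Csf2rb were 258592 and 342603, a ratio of 1.32 (95% exact interval 1.32 to 1.33), and those of Csf2rb2 69011 and 90883, also a ratio of 1.32 (1.30 to 1.33), both with a p too small to be represented.

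Il3ra was called at 1.27 times (1.15 to 1.40, exact binomial test with Benjamini-Hochberg adjustment, adjusted p = 7.25e-06). Il6st was called at 1.32 times (1.04 to 1.68, exact binomial adjusted p = 0.0386), a call that was lost with library totals as the scale (adjusted p = 0.0932) and without a count minimum (adjusted p = 0.0572). Csf2ra, at 1.92 times (1.00 to 3.73, exact binomial adjusted p = 0.0781), did not pass. Kit, at 0.901 times (0.755 to 1.07, exact binomial adjusted p = 0.331), did not pass either, and it was the only receptor gene with a lower level in replicate 2. The reference gene Epor was called as well, at 1.05 times (1.02 to 1.08, exact binomial adjusted p = 0.00219). The libraries differed in this way by a median of 0.22 on the log2 scale, in either direction, over the 9026 genes with at least 100 counts, and 23.0% of those genes differed by more than Csf2rb.

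**Figure D5:**
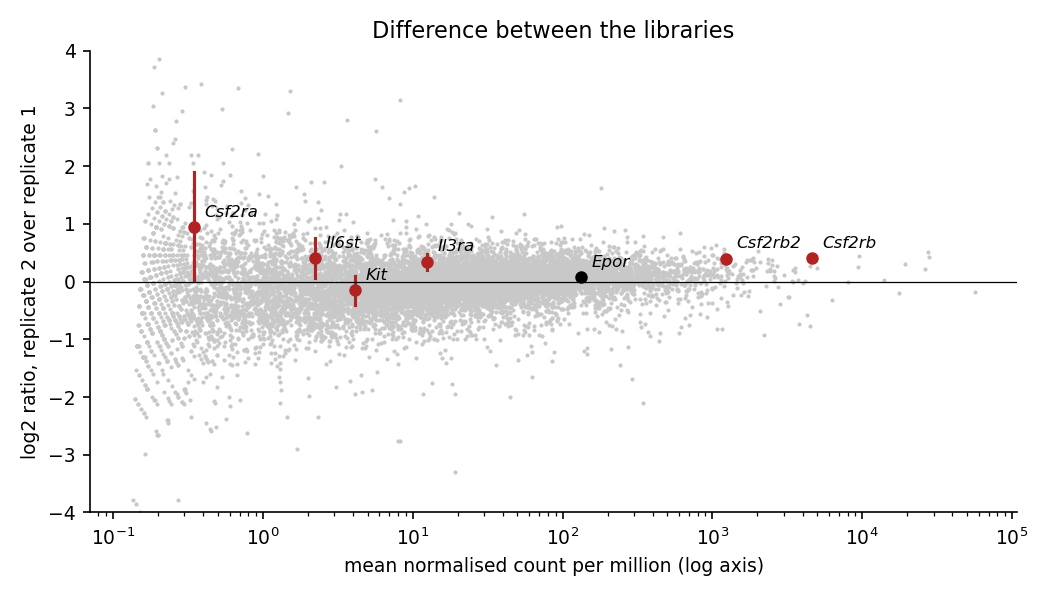
Log2 ratio of normalised counts, replicate 2 over replicate 1, against mean normalised CPM (log axis) for genes with at least 20 counts in both libraries together (grey; genes beyond 4 in either direction are not drawn). The tested receptor genes are red and Epor is black, with 95% exact intervals. Csf2rb, Csf2rb2, Il3ra and Il6st lie between 0.34 and 0.41, and the interval of Kit spans 0.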

How the data were processed

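Expected counts, as deposited, are the authors' estimated fragment counts per gene or transcript, per the file headers. The deposited TPM and FPKM values are scaled by the authors for effective length and library, per the file headers. For each transcript, the authors also deposited its percent of the TPM of its gene. Values refer to mm10 and GENCODE M4, per the deposited description files. Aligner, quantifier, versions and strand handling remain unknown, being not given in the sources used here. Excluded were 26248 rows with a bare number for a name and 97 spike-ins, which held 5 and 4 counts in all. GENCODE M21, also on mm10, supplied names, coordinates and GC content for 42462 gene rows.

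Members and lists were chosen with earlier results of these data known. The rule for named genes took all 9 members, Gata1, Epor, partner chains, and the 3 highest and up to 4 silent genes of each list. Other genes named, further silent ligands and myeloid markers included, were chosen after their values were seen, as was the comparison of neighbouring genes. The ligand gene Flt3l was not matched and is not analysed here.

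Levels of gene pairs were compared with limma 3.58.1 on log2(TPM + 1), fitted to genes whose counts summed to 20 or more, with spreads moderated along a trend and combined as independent, two-sided, and Benjamini-Hochberg adjustment over the 23 pairs tested. Libraries were compared by a two-sided exact binomial test of rounded counts after TMM scaling in edgeR 4.0.16, adjusted over all genes tested. The limma p-values rest on the spread between these 2 libraries, moderated over genes of like level, and that spread may be technical. The binomial p-values hold counting error only, and the spread between cultures does not enter them. Poisson and binomial intervals are at 95% and cover counting error only, and the limit for a gene without counts is 3 counts. Alternatives were the pseudocount, FPKM, posterior means, count minimums, GC adjustment, a replicate block, library totals, DESeq2 1.42.0 size factors, the level threshold and leaving out each replicate. On simulated data over 10441 genes, the pair test called 90% of 50 pairs at a true log2 ratio of 1, 100% at 2 and at 4, and 2% at 0. Those pairs were built from genes with more counts than Il6st or Csf2ra had, and with the same dispersion for all genes. The rates therefore do not describe pairs that include Il6st or Csf2ra. The binomial step called 96%, 90%, 65.3% and 65.3% of the 50, 50, 49 and 49 genes that kept enough counts, at true folds of 2, 0.5, 1.25 and 0.8, with counting noise alone. Python 3.11.15, Biopython 1.88 and R 4.3.3 were used.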

Additional observations from a re-analysis of the deposited data

How the results depend on the processing

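The number of pairs called different was 22 and was between 17 and 23 under each alternative run except without a count minimum, where it was 43 because more pairs could be tested. With the replicate block, each library centred on its median, 22 pairs were called. Of 178 values of single pairs under these alternatives, 175 kept their direction and call, 2 were gained and 1 was lost, all 3 involving Il6st. With 1 library left there is no test, and all 46 such values kept their direction. The number of receptor genes at 1 TPM or more in both libraries, 3, became 6 at a threshold of 0.1 TPM and 2 at 10 TPM. The leading transcript share of Il6st, 86.7%, was 95.1% by counts and 25.3% by posterior means, and that of Kit, 100%, was 44.5% by posterior means. The number of receptor genes called between the libraries, 4, was 3 or 4. Depth limits Csf2ra, Csf3r, Csf1r and Flt3, whose differences between libraries were not called or not tested.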

Other observations

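Of 25 other cytokine and growth factor receptor chain genes, 10 (40%) reached 1 TPM in both libraries, near the 35.3% of all protein-coding genes. After Epor the highest were the interferon receptor gene Ifnar2, at 33.3 and 40.1 TPM, and Il10rb, a chain shared by receptors of the IL-10 family, at 13.8 and 12.04 TPM. Ifngr2 and Ifnar1, further interferon receptor genes, had 7.08 and 14.6 TPM and 6.63 and 7.73 TPM, while the interferon gamma receptor gene Ifngr1 had 1.05 and 1.51 TPM. Il9r, which encodes the IL-9 receptor alpha chain, had 3.54 and 1.45 TPM. Il7r, Pdgfra, Pdgfrb and Tek had 0 counts in both libraries.

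The platelet genes Pf4, Vwf and Ppbp had 0 counts in replicate 1, with 20, 24 and 7 counts in replicate 2. Gp1ba and Tubb1, by contrast, had 17.3 and 10.2 TPM in replicate 1 against 11.02 and 6.65 TPM in replicate 2. Itga2b had 3.25 and 3.98 TPM. These 6 genes thus did not move in 1 direction between the libraries.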
